A study of Mus musculus with 10 samples.

Results

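Vesicle traffic genes were followed in mouse liver through 74 genes of the Rab, Arf, Vps, Trappc, Snx, Cop, Sec, Stx and Vamp families. They were chosen by symbol alone, among 7409 genes that could be named by the number inside a probe's identifier, and were read through 92 probes, with the brightest probe standing for its gene. Of the 74 genes, 48 had a brightest probe above the noise on at least 5 of 10 arrays and were tested. The other 26 did not pass this filter. Both Sec1, a fucosyltransferase gene of the mouse, and Rab10os, an antisense transcript, matched a family prefix without being traffic genes.

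Liver RNA of 5 Gyk heterozygous mice and of 5 wildtype mice (C57Bl/6J), all of them female and 23 weeks old, was measured on 1 Illumina bead array for each mouse. All mice received chow with 4% fat until 11 weeks of age and chow with 6% fat afterwards. Gyk codes for glycerol kinase and lies on the X chromosome, so by X inactivation a heterozygous female liver is expected to be a mosaic of cells using the altered or the intact copy. How the allele was made is not given in the sources used here, where the mutant mice are also called transgenic. Whole liver was measured, so fewer cells of a type and less RNA per cell cannot be told apart.

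Rab and Arf proteins are small GTPases that mark membranes and, when loaded with GTP, recruit the machinery that buds, moves, tethers and fuses vesicles. Coat proteins such as COPII and COPI bud vesicles between the endoplasmic reticulum and the Golgi, tethers such as TRAPP and the Vps complexes catch them, and SNAREs (the Stx and Vamp proteins) drive fusion. Hepatocytes use these routes to secrete plasma proteins and lipoproteins and to take up and recycle receptors.

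The Gyk probe had an intensity of 234.7 to 432.9 in heterozygous and 416.3 to 914 in wildtype liver. The highest value was that of wildtype replicate 1. In the limma model used below, the log2 change of Gyk was -0.65 (adjusted p 0.332), so Gyk itself was not called. Median intensities of the arrays lay between 14 and 24. Replicate 1 of each group stood apart from the other 8 arrays: the arrays of these 2 mice correlated with each other at r = 0.991 across probes, and at 0.934 to 0.967 with the other 8. All 3 hepatocyte markers with a named probe (Apoa1, Ass1 and Serpina1a) were detected on every array. On the deposited scale their sum ran from 73914 to 96257 in heterozygous and from 92271.5 to 103164 in wildtype liver. Of the Kupffer cell markers, 4 of 4 had a higher mean in heterozygous liver, with a median log2 change of 0.27, or 0.09 without the 2 arrays. Their summed intensity ran from 1223 to 2452 in heterozygous and from 965.5 to 2667 in wildtype liver, and their part in the results below was not tested. Median log2 changes of the other marker lists were -0.01 for hepatocytes (3 genes tested), 0.06 for endothelial cells (2), -0.04 for stellate cells (2), -0.11 for cholangiocytes (1), 0.19 for lymphocytes (1) and -0.32 for erythroid cells (2), and no pancreas or gut marker had a named probe.

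No traffic gene was called. The linear model of limma gave 0 of 48 members, and 0% of the 10225 probes tested, an adjusted p under 0.05. At an unadjusted p under 0.05 there were 6 of 48 members, 12.5%, against 11.9% of all probes tested, a share near the background. Of these 6, Rab4a, Snx2, Sec24b and Trappc12 had a higher mean in heterozygous liver (4 members, where 7.26% of all probes were on this side). Trappc12 passed the filter only through the heterozygous arrays, so its place in these counts is partly set by the filter. Trappc13 and Rab8a had a lower mean (2 members, where 4.68% of all probes were on this side).

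The members as a group lay close to 0. Their median log2 change, heterozygous minus wildtype, was -0.02, against -0.01 over all probes tested. In all, 22 members (45.8%) had a positive change, against 46.5% of all probes, and 26 a negative one. A change above 0.3 in size was measured for 2 members, Sec61b and Trappc13, against 10.5% of all probes. The median size of the change was 0.09, against 0.11 over all probes. For 43 of 48 members the 95% confidence interval of the change lay between -0.5 and 0.5. The exceptions were Trappc13, Sec61b, Snx19, Snx30 and Arf5. A constant was added to every intensity before the logarithm, which pulls changes toward 0, most of all in dim probes.

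**Figure D1:**
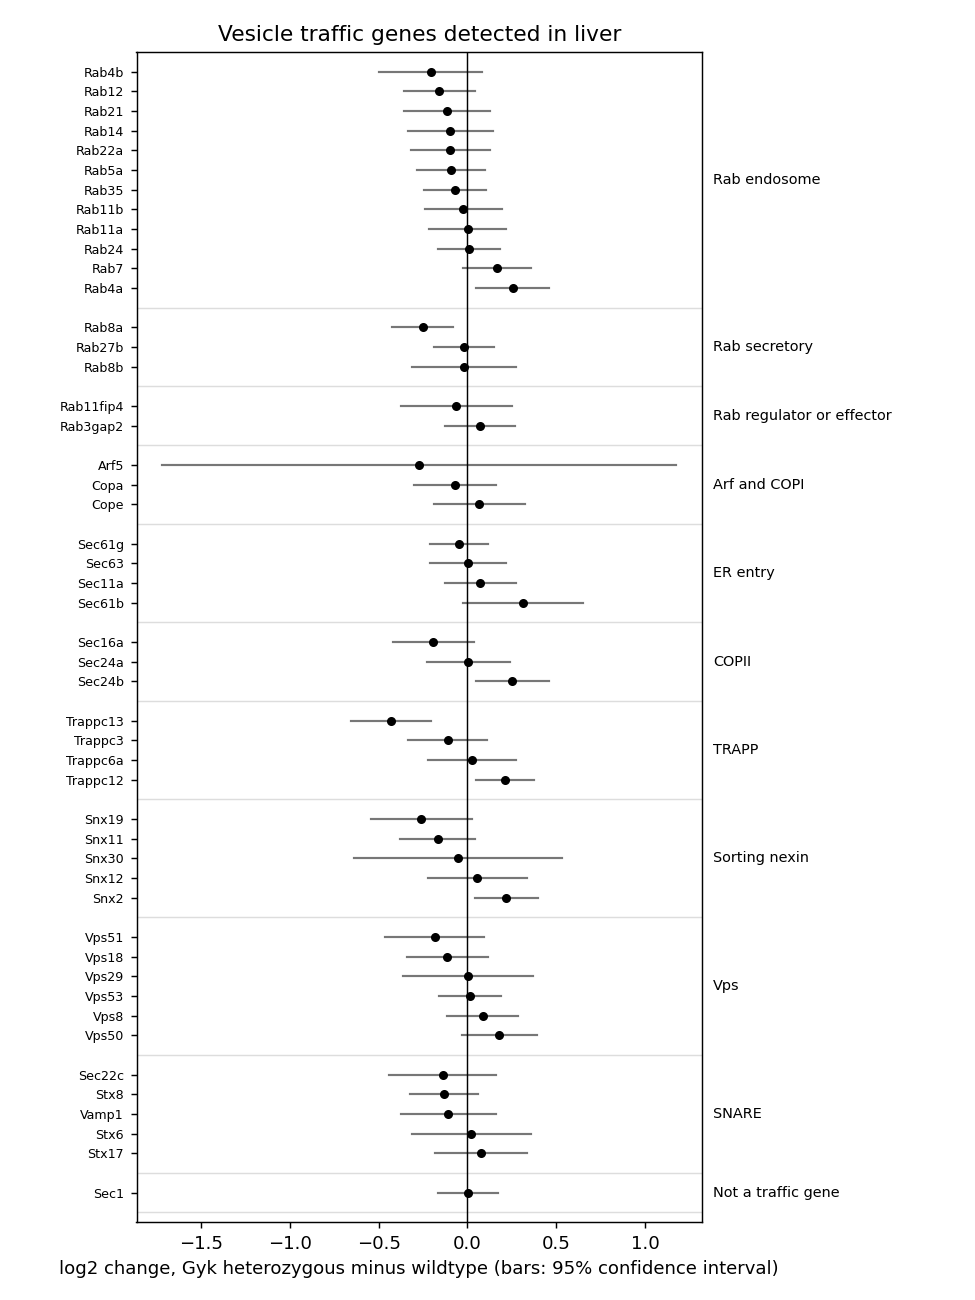
Log2 change of the 48 tested members, heterozygous minus wildtype, grouped by role, with 95% confidence intervals from the limma model (n = 5 and 5 mice). The points run from -0.43 for Trappc13 to 0.31 for Sec61b, 42 of the intervals include 0, and the widest interval belongs to Arf5.

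TRAPP subunits held the member with the smallest p. TRAPP complexes tether vesicles at the Golgi and in autophagy and activate Rab GTPases. Trappc13 (probe scl0066975.2_209-S), a subunit of the TRAPPIII form, had intensities of 250.9, 152.7, 182.9, 179.0 and 164.0 in heterozygous livers 1 to 5, against 326.0, 215.6, 269.6, 324.8 and 264.8 in wildtype livers 1 to 5. The groups overlapped through heterozygous liver 1 alone, which passed wildtype liver 2, and the other 4 heterozygous values lay under every wildtype value. Its log2 change was -0.43 (SE 0.10), which put the heterozygous level at 74.2% of the wildtype level on the shifted scale. The adjusted p was 0.332.

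The size of the Trappc13 change moved little between fits, while its adjusted p depended on the arrays. Without both arrays that stood apart its log2 change was -0.47 (adjusted p 0.0516). With arrays weighted by their quality the change was -0.45 and the adjusted p 0.0310, so that it was the 1 member called in that fit, where 4.01% of all probes were called. Other fits gave higher values. The adjusted p was 0.409 to 0.510 when 1 heterozygous liver was left out. It was 0.650 and 0.660 without wildtype liver 4 or 5. The highest, 0.999, came from samples with a leading title number of 1 or 2 alone.

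Trappc12, another TRAPPIII subunit, was dim. Its intensities were 35.8, 27.4, 44.1, 38.3 and 33.4 in heterozygous livers, against 15.8, 27.2, 25.5, 13.3 and 19.4 in wildtype livers. Every heterozygous value lay above every wildtype value on this deposited scale, though not after normalization. It was above the noise on 5 of 5 heterozygous and 0 of 5 wildtype arrays, so the wildtype level is only a bound. The bound took, for each wildtype array, the lowest signal above the noise, or the probe's own where that was higher. Against it the heterozygous mean was 1.06-fold higher on the shifted scale, a value given without a measure of spread. The measured log2 means were 7.06 in heterozygous and 6.85 in wildtype liver (adjusted p 0.342). Because this probe passed the filter only through the heterozygous arrays, its difference is partly set by the filter.

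The other tested TRAPP genes gave small values. Trappc3, of the core shared by TRAPP complexes, had a log2 change of -0.11 (SE 0.10), and Trappc6a, also of the core, had 0.03 (SE 0.11). The brightest Trappc2 probe was above the noise on 0 arrays, its other probe on 1, and the brightest Trappc11 probe on 4.

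Rab8a, which steers vesicles from the Golgi toward the plasma membrane, was the 1 member whose groups did not overlap after normalization. This held for 1 of 48 members and 1.77% of all probes tested. Its brightest probe (scl0017274.1_278-S) had intensities of 276.2, 311.4, 297.4, 283.9 and 278.2 in heterozygous livers, against 340.8, 384.1, 310.9, 367.3 and 384.6 in wildtype livers. On this deposited scale heterozygous liver 2 exceeded wildtype liver 3 by a narrow margin, and all other heterozygous values lay under all wildtype values. On the log2 scale this was a change of -0.25 (SE 0.08, adjusted p 0.332).

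A further Rab8a probe went the other way. It averaged 42.7 ± 19.6 in heterozygous and 29.7 ± 21.9 in wildtype liver (SD, n = 5 each), was above the noise on 5 and 2 arrays, and had a log2 change of 0.18 (SE 0.10). This further probe needed the heterozygous arrays to pass the filter. With both probes averaged the change of Rab8a was -0.03. Rab8b, the close relative of Rab8a, averaged 303 ± 71.0 in heterozygous and 302 ± 44.2 in wildtype liver (SD, n = 5 each). Its log2 change was -0.02, and -0.20 without the 2 arrays that stood apart.

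Among the other Rabs of secretory routes, Rab27b was tested and had a log2 change of -0.02 (SE 0.08). In other tissues this Rab docks secretory granules and exosomes. Rab3a and Rab6b, which are known from neurons, were above the noise on 3 and 2 arrays, Rab43 on 1, and Rab18 and Rab26 on 0.

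Endosomal Rabs made up the largest role, with 12 of 14 members tested, 4 with a positive and 8 with a negative change. Rab4a, which returns receptors from early endosomes to the plasma membrane by the fast route, had intensities of 841.1, 835.3, 869.3, 887.2 and 715.3 in heterozygous livers, against 823.1, 719.3, 608.4, 573.9 and 738.1 in wildtype livers. Heterozygous liver 5 was the exception to an otherwise complete separation of the groups. The fitted log2 change was 0.26 (SE 0.09, adjusted p 0.349).

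Rab4b, its close relative, lay on the other side of 0. Its intensities were 137.1, 123.9, 170.2, 156.5 and 194.3 in heterozygous livers, against 145.3, 238.7, 181.4, 174.8 and 231.0 in wildtype livers, with a log2 change of -0.21 and an SE of 0.13. Wildtype liver 1, one of the arrays that stood apart, was low here, and the groups overlapped.

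The contrast between Rab4a and Rab4b was tested on their ratio, 1 of 4 pairs of lettered relatives among the tested members. This comparison was added after the values were seen. The log2 ratio of Rab4a to Rab4b averaged 1.90 ± 0.27 in heterozygous and 1.44 ± 0.31 in wildtype liver (SD, n = 5 each). The difference was 0.46, with a two-sided exact permutation p of 0.0476 and 0.190 after Benjamini-Hochberg adjustment over the 4 pairs, so it did not pass. The corresponding differences were -0.23 for Rab8a to Rab8b, -0.25 for Sec24a to Sec24b and 0.02 for Rab11a to Rab11b (adjusted exact p 0.190, 0.190 and 0.873).

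**Figure D2:**
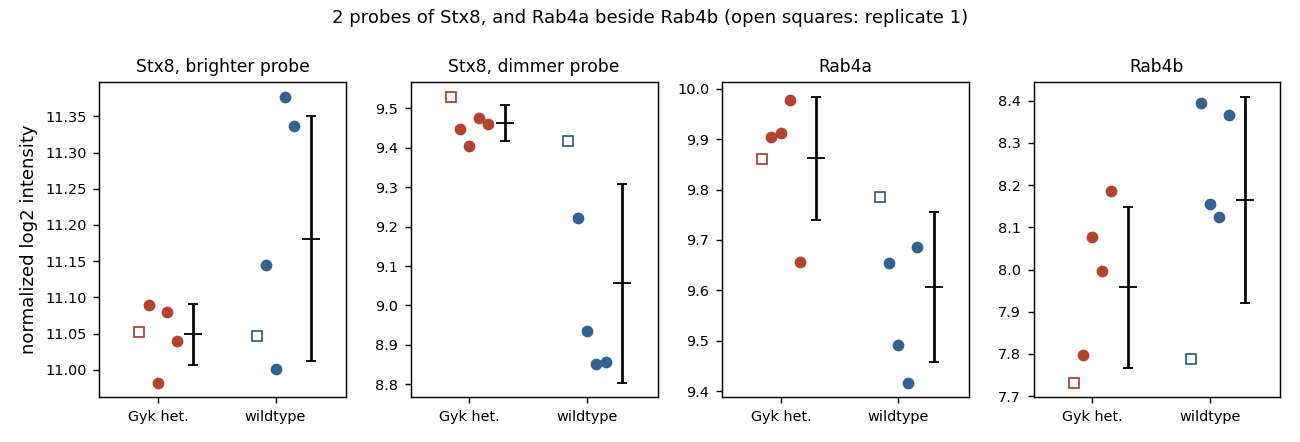
Normalized log2 intensity of the 2 Stx8 probes, Rab4a and Rab4b in each mouse, heterozygous left of wildtype, with the mean and SD beside the points and replicate 1 as an open square. The brighter Stx8 probe and Rab4b had the lower mean in heterozygous liver, and the dimmer Stx8 probe and Rab4a the higher mean.

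Rab7, which governs late endosomes and their fusion with lysosomes, had intensities of 2486, 2273, 2286, 2137 and 2338.5 in heterozygous livers, against 2599, 2159, 1920.2, 2023 and 1810.2 in wildtype livers. Wildtype liver 1 held the highest value of all, and without it the other wildtype values lay under all heterozygous values but 1. The log2 change was 0.17 (SE 0.09), and 0.23 without wildtype liver 1. Its 2 dimmer probes had changes of -0.12 and -0.05.

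Rab11b and Rab14, which act on recycling endosomes, were bright and close between the groups. Rab11b averaged 5208 ± 605 in heterozygous and 5452 ± 481 in wildtype liver, and Rab14 averaged 4064 ± 334 in heterozygous and 4529 ± 519 in wildtype liver (SD, n = 5 each). Their log2 changes were -0.02 and -0.10. Rab11a, a dim relative of Rab11b, had 0.00, Rab12 had -0.16, and Rab5a, the master Rab of early endosomes, had -0.09 from a dim probe that was above the noise on 5 arrays. Rab21, Rab22a and Rab35, which act in early endosomal uptake and recycling, had -0.12, -0.10 and -0.07, and Rab24, linked to autophagy, had 0.01. Of the remaining endosomal Rabs, Rab9 was above the noise on 2 arrays and Rab20 on 1.

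Promoter letters were read for the 62 members listed in a RefSeq promoter table (GRCm38.p6), in the 250 bases before the gene start, on both strands. TCACGTGA, the core of the CLEAR element through which the lysosomal regulator TFEB acts, was present in 4 of 62 members (6.45%) and in 0.907% of 27025 genes. The 27025 genes are all those of the promoter table, many of them without a named probe. The 2 shares therefore cover unlike sets, and their difference was not tested. The 4 members are shown because 2 of them are endosomal Rabs and 1 is an endosomal SNARE. Capitals mark the element.
Rab5a (chr17:53479112-53479171, + strand): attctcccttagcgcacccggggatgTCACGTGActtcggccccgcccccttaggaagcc
Rab21 (chr10:115315592-115315648, - strand): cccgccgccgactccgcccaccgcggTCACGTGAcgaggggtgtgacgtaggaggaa
Stx6 (chr1:155158591-155158650, + strand): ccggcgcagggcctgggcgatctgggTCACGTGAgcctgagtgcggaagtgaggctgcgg
Sec62 (chr3:30792817-30792875, + strand): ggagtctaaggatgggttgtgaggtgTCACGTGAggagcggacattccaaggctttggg
The element began 96, 31, 86 and 33 bases before the start of Rab5a, Rab21, Stx6 and Sec62. The 3 of these genes that were tested, Rab5a, Rab21 and Stx6, had log2 changes of -0.09, -0.12 and 0.02, and Sec62 was above the noise on 0 arrays.

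Elements of the unfolded protein response were also searched. TGACGTG was present in 2 of 62 members (Snx30 and Vps18), against 1.85% of all genes, and the longer ER stress element in 0 of 62, against 0.13%. The cAMP response element TGACGTCA was present in 2 of 62 (Cope and Rab5a), against 1.77%. None of these motifs contains another. These are matches of letters in a window and say nothing of binding.

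Of the proteins that switch or read Rabs, Rab3gap2, a subunit of a complex that acts on Rab3 and Rab18, had a log2 change of 0.07 (SE 0.09). Rab11fip4, a Rab11 effector, had -0.06 (SE 0.14), from a probe above the noise on 5 arrays. Rab3il1 was above the noise on 2 arrays and Rab11fip1 on 0.

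Entry into the endoplasmic reticulum was represented by 4 tested genes. Sec61b, the beta subunit of the channel through which new proteins enter, had the highest change of all members. Its intensities were 1125.3, 1243.8, 1115.9, 1693 and 1603.5 in heterozygous livers, against 1201.5, 1486, 922.4, 877.3 and 1030 in wildtype livers. The groups overlapped, with wildtype liver 2 above 3 of the heterozygous livers. Its log2 change was 0.31 (SE 0.15, adjusted p 0.449).

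The other Sec61b probe lay on the same side, with 737 ± 105 in heterozygous and 531 ± 177 in wildtype liver (SD, n = 5 each). Its log2 change was 0.45 (SE 0.17, adjusted p 0.357). The leading number of the sample title is 1 or 2 in heterozygous samples and 7 in wildtype livers 3, 4 and 5 alone, and its meaning is not given in the sources used here. With that number as a term in the model, the changes of the 2 Sec61b probes were 0.11 and 0.12. In such a fit wildtype livers 3, 4 and 5 add nothing to the group difference. It then compares heterozygous livers with wildtype livers 1 and 2 alone.

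Sec61g, the gamma subunit, had 2338 ± 119 in heterozygous and 2471 ± 224 in wildtype liver (SD, n = 5 each) and a log2 change of -0.05. Sec63, which helps proteins through the same channel, had 0.00 (SE 0.10), and its other probe had -0.05. Sec11a, a catalytic subunit of signal peptidase, averaged 3634 ± 313 in heterozygous and 3573 ± 422 in wildtype liver (SD, n = 5 each), a log2 change of 0.07.

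COPII coats bud vesicles from the endoplasmic reticulum. Sec24b, a subunit that picks cargo, had intensities of 286.4, 298.8, 350.6, 332.2 and 346.4 in heterozygous livers, against 263.7, 276.7, 241.7, 190.9 and 284.5 in wildtype livers. On the deposited scale every heterozygous value lay above every wildtype value. After normalization heterozygous liver 1 fell among the wildtype values, so the groups overlapped there. On the log2 scale this was a change of 0.25 (SE 0.09, adjusted p 0.349). Sec24a, its relative, had a log2 change of 0.00 (SE 0.11). Sec16a, a scaffold of the exit sites where COPII forms, averaged 1657 ± 216 in heterozygous and 1959 ± 192 in wildtype liver (SD, n = 5 each), with a log2 change of -0.19 and an SE of 0.10. Sec23a, of the inner COPII coat, was above the noise on 2 arrays.

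COPI coats return proteins from the Golgi. Copa, its alpha subunit, averaged 2643 ± 252 in heterozygous and 2852.5 ± 327 in wildtype liver (SD, n = 5 each), a log2 change of -0.07. Cope, the epsilon subunit, had 0.07 by its brightest probe and -0.04 by the next. The GTPase Arf5 had a log2 change of -0.27 (SE 0.66), the largest spread of any member.

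**Figure D3:**
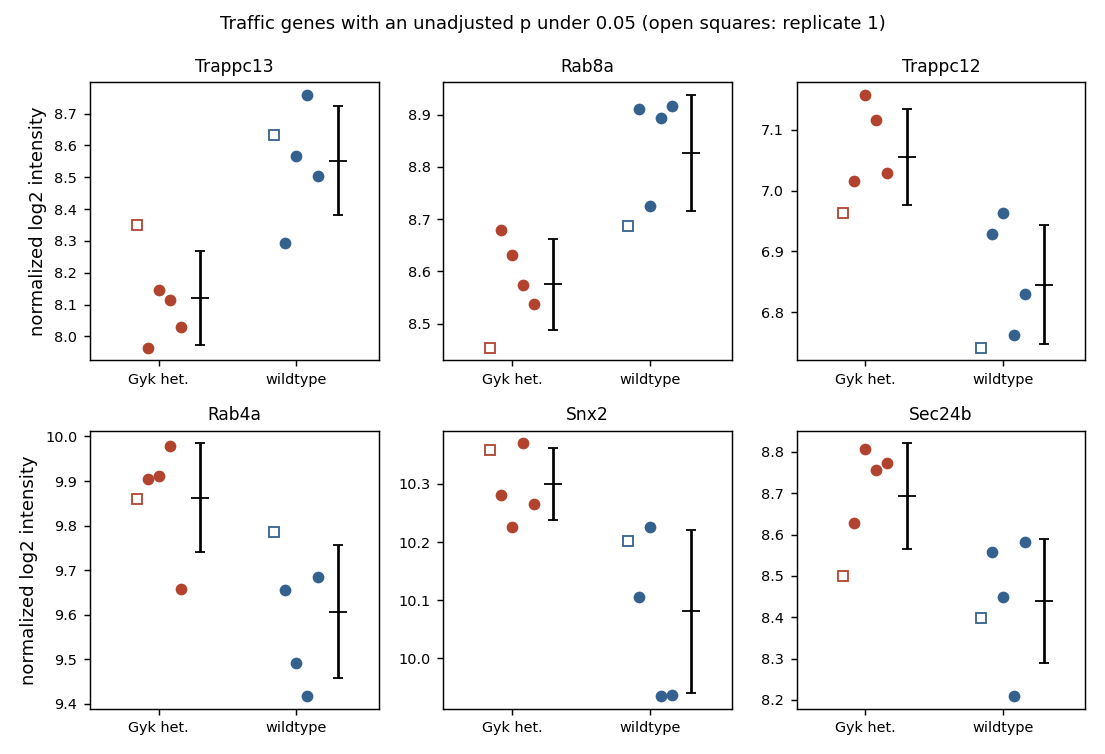
Normalized log2 intensity in each mouse of the 6 members with an unadjusted p under 0.05, heterozygous left of wildtype, with the mean and SD beside the points and replicate 1 as an open square. Of these 6, the values of Rab8a alone separate the groups in full, and in the other panels the groups overlap, for Snx2 at a tie.

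Sorting nexins bind endosomal lipids and sort cargo. Snx2, which works with the retromer complex, had intensities of 1218, 1097, 1108, 1182.4 and 1140.3 in heterozygous livers, against 1130.1, 1022, 1069, 881.2 and 903.9 in wildtype livers. Wildtype livers 4 and 5 were lowest, and wildtype liver 1 passed 2 heterozygous livers on this deposited scale. After normalization the groups met at a tie. The fitted log2 change was 0.22 (SE 0.08, adjusted p 0.349).

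Snx19 had intensities of 333.7, 364.7, 336.0, 326.7 and 286.6 in heterozygous livers, against 328.4, 319.7, 440.6, 510.5 and 469.5 in wildtype livers. The 3 high wildtype values are those with title number 7, while wildtype livers 1 and 2 lay among the heterozygous ones. The log2 change was -0.26 (SE 0.13), and 0.04 with the title number in the model. Snx11 had -0.17, Snx12 had 0.06 and Snx30 had -0.05. Snx5 and Snx29 were above the noise on 0 arrays.

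Vps proteins serve several tethering and sorting complexes of endosomes and lysosomes, and 6 of 11 members were tested, with changes from -0.19 to 0.18. Vps51 and Vps53, shared by the GARP and EARP tethers, had log2 changes of -0.19 and 0.01. Vps50, which is particular to EARP, had 0.18 (SE 0.10), from a probe above the noise on 5 heterozygous and 2 wildtype arrays. This probe needed the heterozygous arrays to pass the filter, so its difference is partly set by the filter. Vps18, of the HOPS and CORVET tethers, had -0.11, Vps8, of CORVET, 0.09, and Vps29, of retromer, 0.00 (SE 0.17). With the title number in the model, Vps51 and Vps18 had 0.01 and 0.05. Vps13a was above the noise on 1 array, and Vps4b, Vps35l, Vps37a and Vps39 on 0.

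SNARE genes included a pair of probes that disagreed. Stx8, a SNARE of late endosomes, had by its brightest probe intensities of 2006, 1984, 1937, 2024 and 2051 in heterozygous livers, against 2105, 2226, 1873, 2574 and 2535 in wildtype livers. Its log2 change was -0.13 (SE 0.09). The dimmer probe had 653.7, 586.6, 582.7, 609.2 and 620.6 in heterozygous livers, against 612.7, 496.8, 376.1, 351.0 and 369.2 in wildtype livers. Here only wildtype liver 1 reached the heterozygous range.

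The dimmer Stx8 probe had a log2 change of 0.41 (SE 0.11) and an adjusted p of 0.332 over all probes. Without wildtype liver 1 its adjusted p was 0.0250, in a fit that called 4.25% of all probes. Without both arrays that stood apart it was 0.0441, with a change of 0.48 on the log2 scale, where 2.01% of all probes were called. With the title number in the model, which leaves wildtype livers 1 and 2 for the comparison, the change was 0.14 (adjusted p 0.909). The log2 ratio of the brighter to the dimmer probe was 1.59 ± 0.04 in heterozygous and 2.12 ± 0.38 in wildtype liver (SD, n = 5 each). The difference of -0.54 had a two-sided exact permutation p of 0.0159, and 0.0794 after Benjamini-Hochberg adjustment over 8 such probe comparisons in 7 genes, so it did not pass. The Rab8a comparison (-0.44) and the Rab7 comparisons (0.29 and 0.22) had the same adjusted exact p of 0.0794, and the remaining ones had higher values. These probe comparisons were added after the values were seen. Which part of the transcript each probe reads is not given in the sources used here.

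Of the other genes placed with the SNAREs, Stx17, which fuses autophagosomes with lysosomes, had a log2 change of 0.08. Stx6 had 0.02, Vamp1 had -0.11 and Sec22c had -0.14. The SEs, that of Stx17 included, were 0.12 to 0.15. Stx3, Stx12, Stx16, Stx19 and Vamp7 were above the noise on 0 arrays.

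The arrays that stood apart touched many members. On 16 of 48 members, 33.3%, both replicate 1 arrays lay on the same side of the other 8, against 26% of all probes tested. They were above the other 8 for Arf5, Rab7, Rab11a and Snx12 (4 members, where 9.15% of all probes were on this side). They were below for 12 members (where 16.8% of all probes were on this side): Copa, Rab3gap2, Rab4b, Rab11b, Rab14, Rab21, Sec22c, Snx30, Trappc3, Vps18, Vps51 and Vps53.

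Arf5 was one such member. Its intensities were 767.1, 21.2, 30.7, 34.3 and 17.6 in heterozygous livers 1 to 5, against 684.3, 29.0, 34.9, 243.6 and 24.8 in wildtype livers 1 to 5. It was thus high in replicate 1 of both groups, intermediate in wildtype liver 4 and near the noise elsewhere. Its log2 change was 0.17 without wildtype replicate 1, -0.83 without heterozygous replicate 1 and -0.39 without both, so its sign rested on single arrays. The dimmest Cope probe was likewise high in replicate 1 of both groups and intermediate in wildtype liver 4, with 864.2, 0.2, -11.8, 7.4 and -6.4 in heterozygous livers, against 877.7, -17.2, 2.9, 270.7 and 7.4 in wildtype livers. The brightest Cope probe, with 2095 to 2823 in heterozygous and 1838.5 to 2858 in wildtype livers, did not show this.

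A dimmer Trappc3 probe had 257.2, 110.6, 111.9, 52.7 and 69.3 in heterozygous livers, against 255.4, 74.0, 60.3, 179.9 and 58.4 in wildtype livers. The Sec23a probe had 55.8 in heterozygous liver 1 and 88.7 in wildtype liver 1, and lay at 6.6 or below in all other livers. Snx30 ran the opposite way, with 144.9, 319.2, 374.9, 366.7 and 329.1 in heterozygous livers, against 162.8, 397.2, 407.0, 222.4 and 416.2 in wildtype livers. Wildtype liver 4 again lay between replicate 1 and the rest. The log2 change of Snx30 was -0.24 without wildtype replicate 1 and 0.15 without heterozygous replicate 1.

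**Figure D4:**
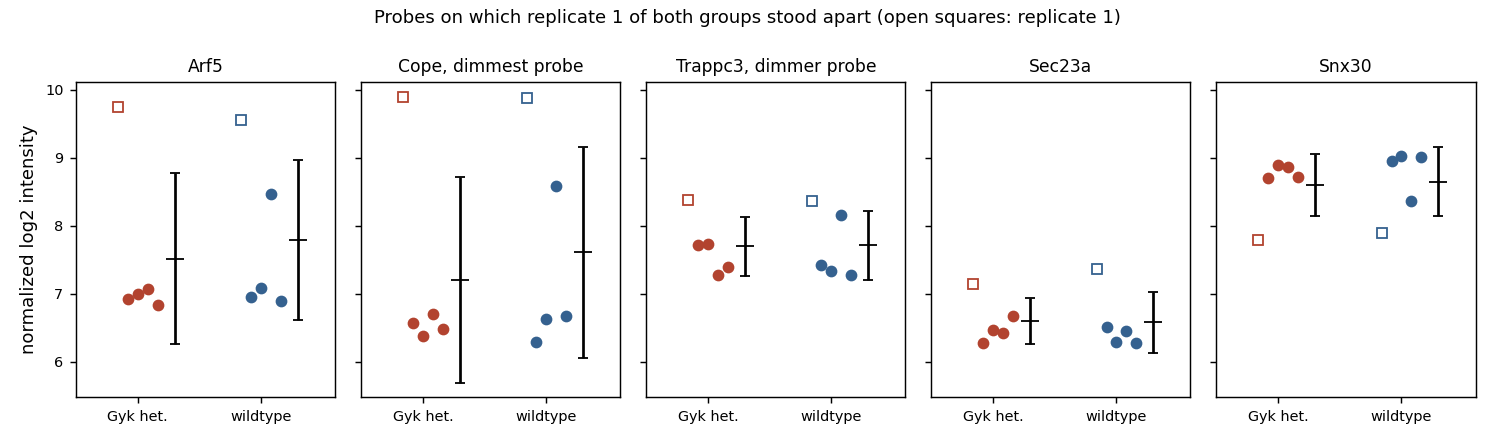
Normalized log2 intensity of 5 probes in each mouse, heterozygous left of wildtype, with the mean and SD beside the points and replicate 1 as an open square. Replicate 1 of both groups lies above the other mice for Arf5, the dimmest Cope probe, the dimmer Trappc3 probe and Sec23a, and below them for Snx30.

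Without these 2 arrays, 42 of 48 members kept the sign of their change, and the 6 that did not had changes no larger than 0.06 in size in either fit. Their median log2 change was -0.04, against -0.02 over all probes, with 16 positive and 32 negative. At an unadjusted p under 0.05 there were 15 of 48 members (31.2%), against 20.7% of all probes. An adjusted p under 0.05 was reached by 0 of 48 members, against 2.01% of all probes. Without wildtype liver 1 alone the same unadjusted count was 15 of 48 (31.2%), against 23%. In that fit 0 members were called, against 4.25% of all probes. Both counts of 15 include Trappc12 and Vps50, which were above the noise on 5 heterozygous but on 0 and 2 wildtype arrays. The filter thus partly sets these counts. With the title number in the model the unadjusted count was 2 of 48, Trappc12 and Trappc13, against 4.95%. Trappc12 had passed the filter only through the heterozygous arrays. In this fit 15 members had the other sign. In that fit the log2 changes of Rab4a, Snx2 and Rab7 were 0.13, 0.15 and 0.02. Heterozygous livers have no title number 7, so this number cannot be told apart from the group in wildtype livers 3, 4 and 5. The group difference in that fit therefore rests on wildtype livers 1 and 2, and liver 1 was one of the arrays that stood apart.

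**Figure D5:**
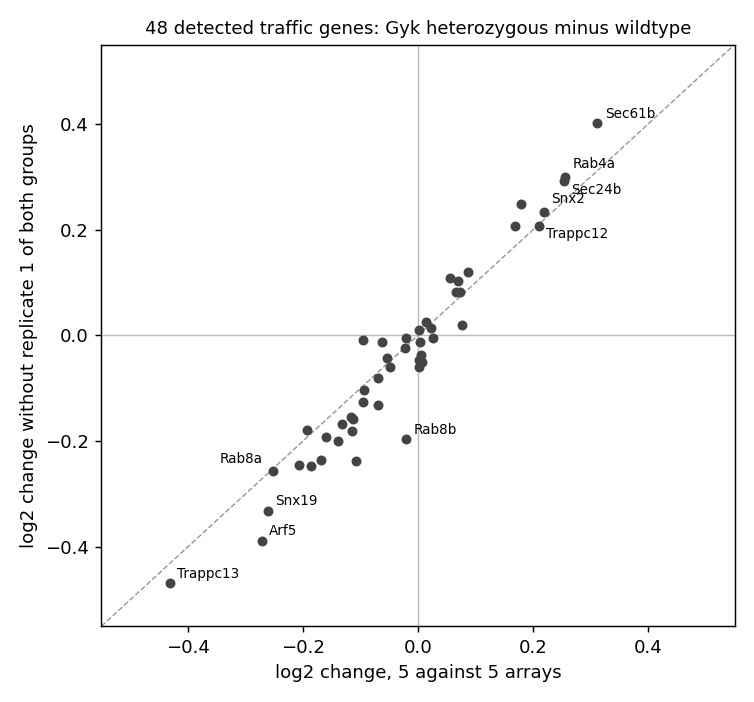
Log2 change of the 48 tested members, heterozygous minus wildtype, with all 10 arrays (horizontal axis) and without replicate 1 of both groups (vertical axis), where the dashed line marks equal values. Both axes share 8 arrays, and Rab8b and Arf5 lie below the line, at -0.20 and -0.39 without the 2 arrays.

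Traffic genes outside these families were read from 7 lists of 159 genes, of which 56 were tested and 0 called. At an unadjusted p under 0.05 there were 8 of 56 (14.3%), against 11.9% of all probes tested. A positive change was measured for 7 of these 8 (12.5% of the 56, against 7.26% of all probes) and a negative one for 1 (1.79%, against 4.68%). Among partners of the Sec61 channel, Tram1, which helps proteins enter the channel, had a log2 change of 0.27, and Srp9, of the signal recognition particle, had 0.29. Tmed10, a p24 cargo protein of early secretory vesicles, had 0.28 and Cog7, of a Golgi tether, 0.43. Rabif, which releases nucleotide from Rabs, had 0.31. Of ESCRT genes, which sort cargo into endosomes for degradation, Chmp5 had 0.34, Pdcd6ip 0.20 and Snf8 -0.27. Dim probes gave some of these changes. Wildtype means were 28.6 ± 29.8 for Chmp5, 38.8 ± 15.1 for Pdcd6ip, 54.6 ± 39.9 for Cog7 and 68.0 ± 29.5 for Rabif (SD, n = 5). Array noise thresholds ran from 22.0 to 41.2. A dim probe can pass the filter through the group where it is high, so the filter may partly set the count of positive changes. Tram1, Srp9, Tmed10 and Snf8 were brighter, with wildtype means of 817 to 1156. The adjusted p of these 8 genes ran from 0.332 to 0.404. With the title number in the model the log2 changes were 0.04 for Srp9, 0.13 for Cog7, 0.10 for Chmp5, 0.14 for Rabif, 0.07 for Pdcd6ip and -0.11 for Snf8, while Tram1 had 0.31 and Tmed10 0.22. The 13 clathrin and adaptor genes tested had a median of 0.02, with values from -0.16 for Gga1 to 0.23 for Ap3m1. The lists for GTPase partners, cargo proteins, tethers and other SNAREs had medians of -0.02, -0.04, -0.04 and -0.10, over 10, 6, 9 and 2 tested genes, and those for ESCRT and the Sec61 channel had 0.07 and 0.02 over 8 genes each.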

How the data were processed

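RNA of 10 livers was measured on Illumina bead arrays. The deposited values were linear bead intensity per probe, made with BeadStudio 1.5.1.3 per the submitters' processing notes. Values below 0 (31.1% to 33.1% of each array) show that a background had been subtracted, and whether the arrays had been normalized to each other is not given in the sources used here. A second table, with 80 columns for 10 arrays, was not used, because no label ties its columns to samples.

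From these values the following was computed. A constant of 95.2 was added, which set the minimum at 16, before log2 and quantile normalization. A probe counted as above the noise beyond 1.64 times the root mean square of its array's values below 0, and the 10225 of 24048 probes above it on at least 5 of 10 arrays were tested with limma 3.58.1 in R 4.3.3 (moderated test, two-sided, Benjamini-Hochberg over all tested probes, threshold 0.05). Confidence intervals use 11 degrees of freedom. The test was tried on simulated data with independent noise and changes larger than that of any member. That trial does not show how well changes of the members' size would be found. Exact permutation tests used scipy 1.17.1. Log2 changes are heterozygous minus wildtype, and intensities are the deposited ones.

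Gene names came from matching the number in a probe identifier, with 1 or 2 leading zeros and at least 11000, to gene identifiers of a RefSeq table, for 8884 probes. Whether probes of near-identical relatives bind each other's transcripts was not tested. Replicate numbers follow the sample list and carry no meaning. The members, lists and tests were chosen with earlier results of these data known. The rule named members past the threshold, the 12 members of smallest p on each side, and up to 2 further bright members of each role as levels. Stx8's and other further probes, Rab8b and members that stood apart were singled out after their values were seen. The number of arrays limits the precision.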

Additional observations from a re-analysis of the deposited data

Results flagged for a closer look

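In groups of 5 samples, a lone sample was examined by Dixon's ratio on normalized log2 values. This is its gap to the nearest other sample over the range of the group, with 0.71 as the critical value. The intensities printed beside the ratios are the deposited ones. Of 120 groups of a probe and genotype, 9 exceeded it, where chance gives about 1 in 20 of groups fixed beforehand. Some probes here, such as Sec23a and the dimmest Cope probe, were picked after their values were seen. The count is therefore no test against chance. In heterozygous liver, replicate 1 was the lone sample for Arf5 (0.919, high at an intensity of 767.1), the dimmest Cope probe (0.909, high at 864.2), Snx30 (0.837, low at 144.9) and Vps29 (0.714, high at 439.6), and replicate 3 for the other Sec63 probe (0.736, high at 2209). In wildtype liver replicate 1 was the lone sample for Rab8b (0.802, low at 229.1), Sec23a (0.791, high at 88.7), Vps18 (0.791, low at 765.2) and Trappc3 (0.779, low at 1569.5). In 8 of these 9 groups the lone sample was thus one of the 2 arrays that stood apart from the other 8. The cause was not tested.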

How the results depend on the processing

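The count of 0 called members held in 22 of 23 alternatives, and array weights called 1, Trappc13. The count of called probes, also 0 with 1221 at an unadjusted p under 0.05, was 410 with array weights, 206 without both replicate 1 arrays, and 0 to 435 when single replicates were left out, with 435 reached without wildtype replicate 1. The members' median log2 change stayed between -0.07 and 0.03 over all alternatives, and between -0.04 and -0.02 when 1 replicate was left out. Of 549 values of 24 named genes under alternatives, 13 in 8 genes had the other sign, all of them uncalled, and the cause was not tested. With the title number as a replicate block these were Sec11a at -0.0331, Cope at -0.0229, Snx19 at 0.0384, Vps51 at 0.0140 and Vps18 at 0.0496. Within title numbers 1 and 2 they were Sec11a at -0.0450, Cope at -0.0510, Snx19 at 0.0441 and Vps18 at 0.0319. With a gene's probes averaged, Rab7 was at -0.0017 and Stx8 at 0.137. When single replicates were left out, Stx17 ran from -0.0132 (without wildtype replicate 1) to 0.144 and Cope from -0.0170 (without heterozygous replicate 4) to 0.138. Dim probes such as Trappc12, Rab5a and Vps50 lie near the noise, which limits what their changes can show.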
